A study of Mus musculus with 24 samples.

Results

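Propyzamide was compared with vehicle 24 h after an antibody against CD3 (anti-CD3), in 4 libraries labelled Propyzamide_AntiCD3_24Hour and 4 labelled Vehicle_AntiCD3_24Hour, which are 8 of the 24 libraries of the series. All animals were male C57BL/6 mice aged 11 weeks with no genetic change named, and both groups received anti-CD3, so the single difference in the labels is propyzamide or vehicle. Each library is the bulk RNA of a sample made by the SMART-seq2 protocol. The other 16 libraries hold the same treatments without stimulation and 3 h after anti-CD3, with 4 libraries per group. The labels call the stimulated animals antigen-stimulated, and the series title speaks of T cells in an inflammatory bowel disease model. For the tissue, any cell sort, the dose and the length of propyzamide treatment, no information was found in the labels. Both groups at 24 h carry the same i5 index, so the index does not separate them. Replicates have no number in the labels and are numbered here in record order, and nothing says that they come from separate animals. P-values therefore measure only the spread between these libraries.

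Propyzamide is a herbicide that stops root growth of weeds by binding plant tubulin. Anti-CD3 binds the signalling chains of the T cell receptor and activates T cells throughout the body. In mice it causes cytokine release, interferon responses and damage to the small intestinal epithelium, from which the tissue then recovers. The study asked whether an environmental chemical alters such inflammation, and its authors linked propyzamide to the aryl hydrocarbon receptor (AHR), NF-kappaB and C/EBPbeta. AHR is a ligand-activated transcription factor that induces cytochrome P450 genes, NF-kappaB drives inflammatory genes after receptor signals, and C/EBPbeta is a transcription factor of acute inflammatory responses.

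The depth of the libraries sets what can be seen. The other 7 libraries at 24 h held 701287 to 2071732 estimated counts, and propyzamide replicate 3 held 9812102, which is 4.74 times the next deepest library of the series. Most counts lay in 12 gene models that resemble the mouse major satellite repeat (satellite-like models). Named protein-coding genes received 35517 to 100729 counts in the 7 libraries and 2935966 in replicate 3, so 93.5% of all such counts in the propyzamide group came from that library. A level of 3 counts equals 2.05 to 5.16 CPM (counts normalized to a library of 1000000) in the 7 libraries and 0.0937 CPM in replicate 3. Transcripts of epithelium, plasma cells, B cells and T cells were all present, and the T cell markers were low. Cd3e, a chain of the receptor that anti-CD3 binds, had 3, 4, 6 and 3 counts with vehicle and 3, 10, 313 and 8 with propyzamide.

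**Figure D1:**
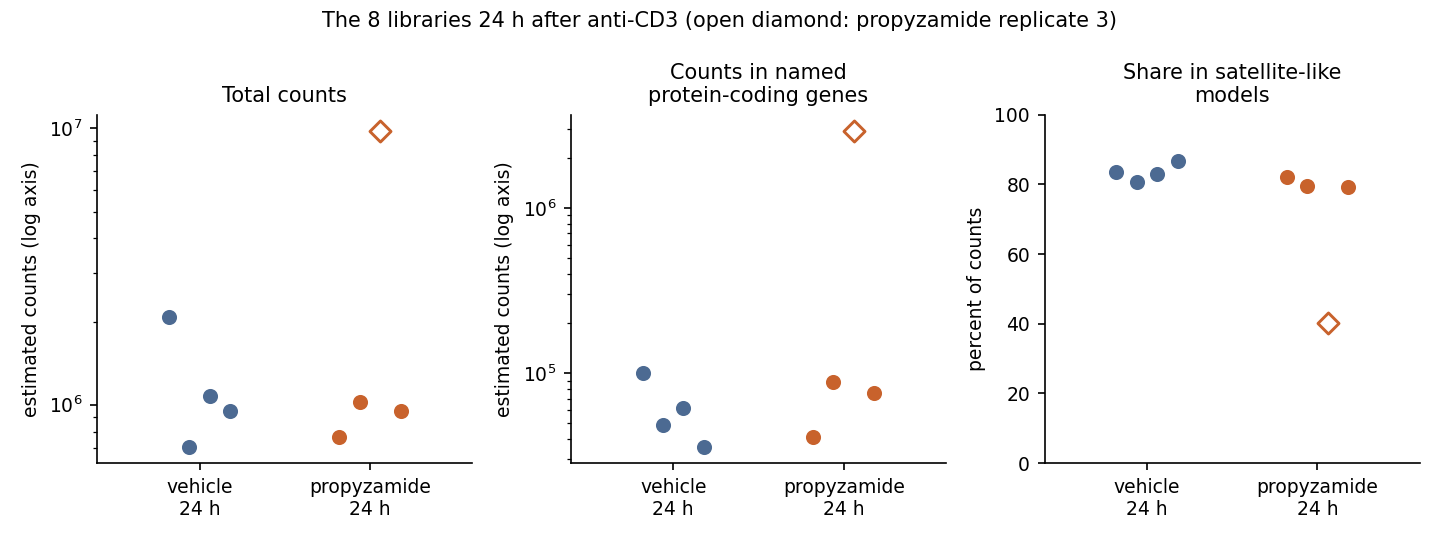
Total estimated counts and counts in named protein-coding genes (log axes) and the percent of counts in satellite-like models, for the 4 vehicle and 4 propyzamide libraries at 24 h, 1 point per library. The open diamond is propyzamide replicate 3, with 9812102 counts and 40.2% in satellite-like models, while the other 7 libraries lie between 79.4% and 86.8%.

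Satellite-like models held 83.5%, 80.8%, 83.0% and 86.8% of the counts with vehicle and 82.1%, 79.6%, 40.2% and 79.4% with propyzamide. The means were 83.5% ± 2.47 and 70.3% ± 20.1 (SD, n = 4 per group, exact two-sided permutation p = 0.0571, adjusted over 4 composition values 0.171). Without replicate 3 the propyzamide mean was 80.4% ± 1.498 (n = 3, exact permutation p = 0.114, adjusted 0.343). Named protein-coding genes held 5.30% ± 1.35 and 13.0% ± 11.4 (exact permutation p = 0.0857, adjusted 0.171), and 7.31% ± 1.70 with propyzamide without replicate 3. The mitochondrial share outside satellite-like models was 9.10% ± 2.18 and 10.01% ± 1.91 (exact permutation p = 0.514). Detected genes numbered 16240 ± 3869 and 22070 ± 13960, and 15100 ± 952 without replicate 3, which turns the direction. The smallest p that 4 libraries against 4 can give here is 0.0286.

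At 24 h no gene passed the test, and the values of the named genes and lists are described here without a call. The summed enterocyte genes and epithelial identity, junction and crypt genes were far higher in propyzamide replicate 3 than in every vehicle library. The enterocyte transcripts lost their difference without it. Summed alpha-defensins were lower in replicate 3 than in every vehicle library. Several lists had higher median log2 fold changes than the named genes as a whole, with and without that library. Among them were plasma cell, T cell receptor, goblet cell, replication, glycolysis, oxidative phosphorylation, lipid synthesis, chaperone, B cell, macrophage and ribosomal protein genes. Interferon-inducible GTPases had lower fitted levels in 6 of 9 genes and in 7 of 9 without replicate 3. The levels of 94 genes lay higher in all propyzamide libraries than in all vehicle libraries, among them Prpsap1, Fam193a and Elf3 (2.47% of those tested), and those of 90 lay lower, among them Muc16, Clasp2, Mmp12 and Arsk (2.37%).

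The edgeR quasi-likelihood test over all 24 libraries called 0 of 3799 genes (0%) at an adjusted p of 0.05 or less, and the smallest adjusted p was 0.322. At an unadjusted p under 0.05 there were 170 genes higher with propyzamide (4.47%) and 218 lower (5.74%). Without replicate 3 these were 75 (1.97%) and 137 (3.61%), again with 0 called and a smallest adjusted p of 0.0522. Among the 2459 named protein-coding genes tested, 156 were higher (6.34%) and 55 lower (2.24%) at an unadjusted p under 0.05, and 57 (2.32%) and 40 (1.63%) without replicate 3. Of the named protein-coding genes, 89 lay higher in each propyzamide library than in all 4 vehicle libraries (3.62%) and 31 lay lower (1.26%). With other tools, DESeq2 called Prpsap1 and Apoa4 higher and Gm37951 lower, and limma-voom with quality weights called 0. The median log2 fold change was 0.09 over all tested genes and 0.32 over the named protein-coding ones, and RLE normalization moved these to 0.30 and 0.54. Fold changes of gene lists are therefore read against 0.32, and against 0.24 without replicate 3. Of all named protein-coding genes 69.3% had a positive log2 fold change, and 63.9% without replicate 3, and the counts of positive members are read against these shares. Counts of list members at an unadjusted p under 0.05 are likewise read against 6.34% higher and 2.24% lower. Without replicate 3 they are read against 2.32% and 1.63%.

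Prpsap1, which encodes a protein associated with phosphoribosyl pyrophosphate synthetase and so with nucleotide synthesis, had the smallest p (ENSMUSG00000015869.16, GRCm38 chromosome 11, 116470845 to 116494202, minus strand). Its level was 1.36, 4.48, 2.28 and 3.44 CPM with vehicle and 16.3, 5.42, 30.5 and 21.8 CPM with propyzamide. All propyzamide libraries were above all vehicle libraries, although propyzamide replicate 2 was close to the highest vehicle value. The log2 fold change was 2.82 ± 0.66 (SE, edgeR adjusted p = 0.322) and 2.39 ± 0.69 without replicate 3 (edgeR adjusted p = 0.801). DESeq2 called it, with a log2 fold change of 3.07 and an adjusted p of 0.0421. The vehicle levels rest on 2, 3, 2 and 2 counts.

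Fam193a, a gene with little known function (chromosome 5, 34369933 to 34486456, plus strand), had 1.36, 0, 1.14 and 0 CPM with vehicle and 14.7, 9.93, 6.93 and 3.11 CPM with propyzamide. The groups did not overlap, and here replicate 3 was not the highest library. The log2 fold change was 3.33 ± 0.96 (edgeR adjusted p = 0.322) and 3.36 ± 0.99 without replicate 3. Vehicle had 3 counts in all, and the ratio of pooled normalized counts was 8.45 with a 95% counting interval of 2.86 to 41.3. Pooling weights each library by its depth, so this ratio rests mainly on replicate 3. The interval leaves out the spread between libraries. Aldh1b1, a mitochondrial aldehyde dehydrogenase, had 1.36, 0, 2.28 and 1.72 CPM with vehicle and 4.88, 2.71, 28.6 and 14.5 CPM with propyzamide. Its groups also did not overlap, with log2 fold changes of 3.29 ± 0.92 and 2.35 ± 0.98 without replicate 3. The other genes among the 10 higher ones with the smallest p were the epithelial genes Lgals4, Cldn7, Apoa1, Rbp2, Muc13 and Fabp1 and the mitochondrial creatine kinase Ckmt1, and each of these 7 was at its highest in replicate 3.

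On the lower side the leading named gene was Muc16, a large membrane mucin of wet epithelial surfaces (chromosome 9, 18495455 to 18674530, minus strand). It had 29.4, 26.9, 22.8 and 20.6 CPM with vehicle and 14.7, 9.93, 10.6 and 8.30 CPM with propyzamide. Each propyzamide library was below each vehicle library, replicate 3 lay among the others, and the log2 fold change was -1.23 ± 0.36 (edgeR adjusted p = 0.322), or -1.21 ± 0.39 without it. Clasp2, a protein that binds the plus ends of microtubules and stabilizes them (chromosome 9, 113741473 to 113919682, plus strand), had 24.6, 20.9, 12.6 and 13.8 CPM with vehicle. With propyzamide it had 9.77, 6.32, 6.43 and 6.23 CPM. These groups did not overlap either (-1.38 ± 0.43, edgeR adjusted p = 0.368, and -1.30 ± 0.48 without replicate 3).

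Mmp12, the macrophage elastase, had 40.3, 41.8, 29.7 and 48.2 CPM with vehicle and 26.1, 21.7, 13.6 and 20.8 CPM with propyzamide (-1.0 ± 0.34, and -0.80 ± 0.34 without replicate 3). Arsk, a lysosomal sulfatase, had 19.8, 35.8, 35.4 and 17.2 CPM with vehicle and 11.4, 10.8, 8.78 and 12.5 CPM with propyzamide (-1.34 ± 0.46, and -1.20 ± 0.51). Slc6a18, an amino acid transporter, had 12.3, 13.4, 5.71 and 8.602 CPM against 4.88, 2.71, 3.69 and 1.04 CPM (-1.67 ± 0.58, and -1.85 ± 0.69). None of the 3 overlapped between the groups, and their edgeR adjusted p was 0.368 each. Of all named protein-coding genes, 1.26% lay wholly lower with propyzamide. On both sides the genes were picked by p from these same values, so their lack of overlap is no separate support. Muc16, Clasp2 and Mmp12 had 6 to 59 counts in each of the 7 shallower libraries, more than the 0 to 3 vehicle counts of Prpsap1, Fam193a and Aldh1b1. Of the other 5 among the 10 lower genes with the smallest p, Marf1 and Opcml did not overlap between the groups, whereas Dmxl1, Atrip and Pkhd1l1 did.

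**Figure D2:**
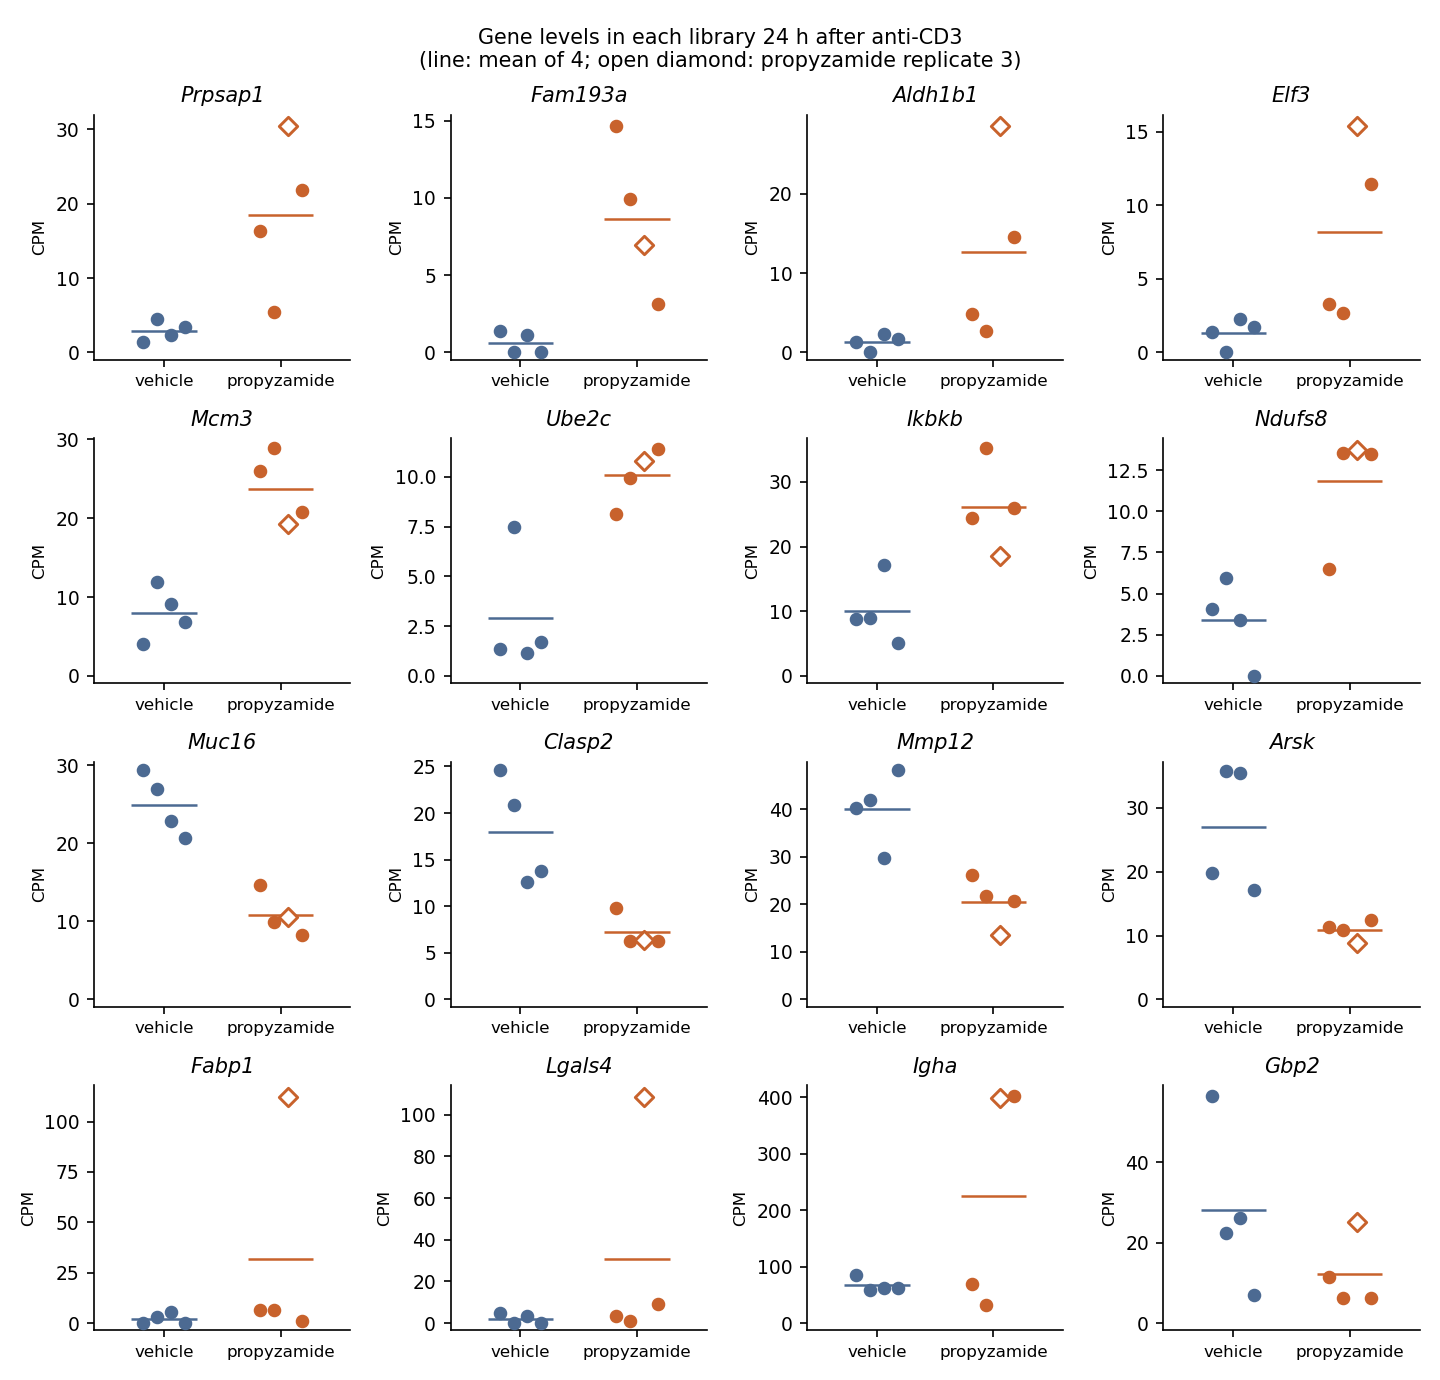
CPM of 16 genes in each of the 8 libraries at 24 h, with a line at the mean of 4 libraries and an open diamond for propyzamide replicate 3. From Prpsap1 to Arsk the 12 genes do not overlap between the groups, whereas Fabp1 and Lgals4 are high in replicate 3 alone, Igha is high in replicates 3 and 4, and Gbp2 overlaps.

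Enterocyte transcripts differed most in size, and that difference lay in 1 library. The list of 33 enterocyte genes covers lipid and sugar uptake, digestion and chylomicron assembly, and 11 members had enough counts to be tested. The summed level of the whole list was taken per 1000000 counts in named protein-coding genes, which is called coding CPM here. It was 516, 309, 441 and 394 with vehicle and 509, 284, 8706 and 556 with propyzamide. Replicate 3 was far above all others, and the other 3 propyzamide libraries lay in or next to the vehicle range. All 11 tested members had a positive log2 fold change and an unadjusted p under 0.05, with a median of 4.12. Without replicate 3, 4 members were positive, 5 negative and 2 without any count, with a median of 0.00. The 11 members had 85 counts in the 7 shallower libraries together and 18098 in replicate 3. These are bulk levels, in which fewer cells of a type and less RNA per cell cannot be told apart.

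Fabp1, the fatty acid binding protein of small intestinal enterocytes (chromosome 6, 71199827 to 71205023, plus strand), had 0, 2, 5 and 0 counts with vehicle and 4, 7, 3594 and 1 with propyzamide. On the CPM scale these were 0, 2.99, 5.71 and 0 against 6.51, 6.32, 112 and 1.04, and the log2 fold change was 4.06 ± 1.18, or 1.11 ± 1.23 without replicate 3. Apoa1, the main protein of high-density lipoprotein, had 1 count with vehicle in all and 0, 0, 1518 and 2 counts with propyzamide. The ratio of pooled normalized counts was 157 with a 95% counting interval of 28.2 to 6218, and it rests on replicate 3, without which the log2 fold change was 1.13 ± 1.89. Apoa4, an apolipoprotein of chylomicrons, had no count in the other 7 libraries and 1125 in replicate 3. Against a floor of 3 counts over the vehicle group it was at least 38.8-fold higher, a bound that rests on this library alone.

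The wider list of epithelial identity, junction and crypt genes had 16 of 16 tested members positive, with a median of 2.502 and 14 members at an unadjusted p under 0.05. Here a smaller difference was left without replicate 3: 14 of 16 were positive, the median was 0.85 and 2 had an unadjusted p under 0.05. The summed level was 1569, 680, 1046 and 1042 coding CPM with vehicle and 1429, 887, 8422 and 2238 with propyzamide. Replicates 3 and 4 were above all vehicle libraries, and replicates 1 and 2 were within their range. Elf3, an epithelial transcription factor (chromosome 1, 135253575 to 135258568, minus strand), had 1.36, 0, 2.28 and 1.72 CPM with vehicle and 3.26, 2.71, 15.4 and 11.4 CPM with propyzamide. Its groups did not overlap, at 2.67 ± 0.79 and 2.03 ± 0.85 without replicate 3, on 5 vehicle counts. Tspan8, an epithelial tetraspanin, gave 2.94 ± 0.86 and 2.13 ± 0.93.

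Lgals4, a galectin of the gut epithelium, had 7, 0, 3 and 0 counts with vehicle and 2, 1, 3476 and 9 with propyzamide. Its log2 fold change of 3.71 ± 1.0 became 0.80 ± 0.95 without replicate 3. Cldn7, a tight junction claudin, went the same way, from 3.68 ± 1.02 to 1.16 ± 1.04. Areg, the growth factor amphiregulin that epithelium and leukocytes make in tissue repair, had 384 counts in replicate 3 and none in the other 7 libraries, at least 13.3-fold above the vehicle floor. Goblet cell genes had 7 of 8 tested members positive with a median of 1.01, and 6 of 8 with 0.64 without replicate 3. Among them Muc13, a membrane mucin, had 3, 0, 0 and 0 counts with vehicle and 2, 0, 873 and 4 with propyzamide, and Muc2, the secreted gel mucin, had 10, 0, 0 and 0 against 5, 1, 171 and 5.

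As summed levels, Paneth cell transcripts did not share this pattern. These cells at the crypt base secrete alpha-defensins and lysozyme. The summed level of the defensins was 27300, 17750, 15580 and 23930 coding CPM with vehicle and 35310, 16280, 5615 and 34190 with propyzamide, so the library with the most enterocyte RNA had the lowest defensin level of the 8. Of 22 tested defensin genes 18 were positive with a median of 0.30, and 20 with a median of 0.63 without replicate 3. Defensin genes are close copies of each other, and their counts can be split between them. Defa23 had 180, 131, 122 and 156 CPM with vehicle and 313, 145, 54.4 and 260 CPM with propyzamide, which overlapped. Lyz1, the Paneth cell lysozyme, had 264, 164, 142 and 251 CPM against 348, 164, 103 and 373 CPM, and the 9 tested lysozyme, lectin and Reg genes had a median of 0.09. Members of that list ran from -0.85 to 2.735. One of them, Reg3b, was called higher in the fit without the filter on low counts (3.01, edgeR adjusted p = 0.015).

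**Figure D3:**
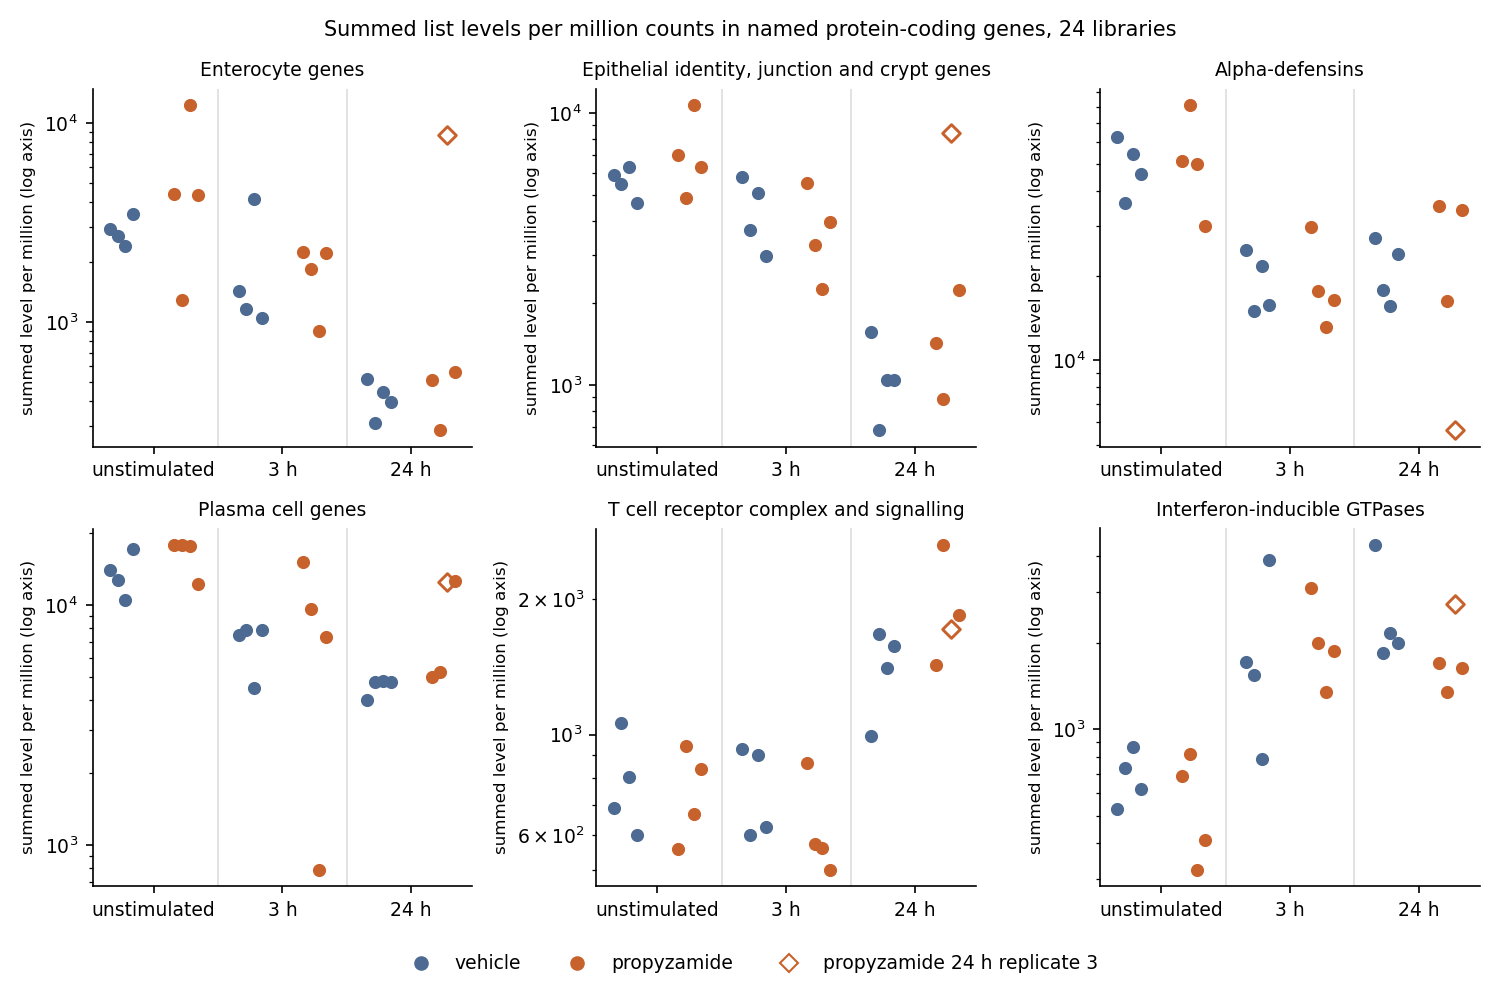
Summed levels of 6 gene lists in coding CPM, the counts of a list per 1000000 counts in named protein-coding genes (log axis), in all 24 libraries, by treatment and time, 1 point per library. At 24 h propyzamide replicate 3 (open diamond) has 8706 for enterocyte genes against 309 to 516 with vehicle, and 5615 for alpha-defensins against 15580 to 27300.

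The epithelial levels of the 24 h libraries can be set beside those of the earlier stages. Enterocyte genes summed to 2404 to 3487 coding CPM in unstimulated vehicle libraries, 1047 to 4123 at 3 h and 309 to 516 at 24 h. With propyzamide these ranges were 1286 to 12280, 898 to 2255, and 284 to 556 at 24 h without replicate 3. Replicate 3, at 8706, was thus above every unstimulated vehicle library. Its part in the epithelial differences is given by the values without it, and whether it differs in the tissue sampled was not tested.

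Plasma cell transcripts were higher with propyzamide by a median log2 fold change of 0.86, and by 0.88 without replicate 3. Plasma cells of the gut secrete immunoglobulin A, joined by the J chain. Of 14 tested members 13 were positive in both fits, and 5 had an unadjusted p under 0.05 with all libraries and 3 without replicate 3. Among all named genes 6.34% and 2.32% were higher at that threshold. The summed level was 4001, 4782, 4839 and 4786 coding CPM with vehicle and 4989, 5277, 12520 and 12540 with propyzamide. All propyzamide libraries were above all vehicle libraries, but replicates 1 and 2 only just, and replicates 3 and 4 were well above. Among the 40 lists this was the only one whose summed levels did not overlap between the groups at 24 h. With 40 lists looked at, this separation is not read as a difference. The list had stood at 10440 to 17150 in unstimulated vehicle libraries and 12280 to 17820 with propyzamide.

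Igha, the constant region of immunoglobulin A (chromosome 12, 113254830 to 113260236, minus strand), had 86.0, 58.2, 62.8 and 61.9 CPM with vehicle and 70.01, 31.6, 399.6 and 403 CPM with propyzamide. Replicates 3 and 4 were high and replicates 1 and 2 were at or below the vehicle level, so the groups overlapped (1.75 ± 0.64, edgeR adjusted p = 0.379, and 1.34 ± 0.65 without replicate 3). Jchain, the J chain, had 21.2, 10.4, 18.3 and 12.04 CPM against 24.4, 16.3, 85.5 and 70.6 CPM (1.66 ± 0.57, and 1.24 ± 0.58). Ssr4, a subunit of the translocon-associated complex of the endoplasmic reticulum, gave 1.75 ± 0.76 and 1.53 ± 0.84. Ighg2b, a constant region of immunoglobulin G, rested on replicate 3, with 1.78 ± 0.68 and 0.39 ± 0.64. Immunoglobulin variable segments, of which 8 were tested, had a median of 1.07 and of 0.26 without replicate 3.

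B cell genes were positive in 17 of 17 tested members with and without replicate 3, with medians of 0.42 and 0.57, beside 0.32 and 0.24 for all named genes. Their summed levels were 5172, 9915, 10180 and 5828 coding CPM with vehicle and 8162, 13420, 6163 and 12160 with propyzamide, which overlapped. Ighm, the heavy chain of immunoglobulin M, gave 0.66 ± 0.46 and Cd83, an activation marker of B cells and dendritic cells, 0.87 ± 0.51. Genes of MHC class II presentation were also positive in 11 of 11, with medians of 0.31 and 0.44.

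T cell receptor and signalling genes were positive in 6 of 6 tested members with a median of 0.72, and of 0.80 without replicate 3, and none had an unadjusted p under 0.05 with all libraries. Summed levels were 993, 1670, 1406 and 1577 coding CPM with vehicle and 1429, 2639, 1718 and 1841 with propyzamide, against 599 to 1060 in unstimulated vehicle libraries. Lck, the kinase that starts receptor signalling, had 10.2, 8.96, 8.00 and 13.8 CPM with vehicle and 9.77, 19.0, 19.7 and 14.5 CPM with propyzamide (0.67 ± 0.43). Ptprcap, a partner of the CD45 phosphatase, gave 1.05 ± 0.62. Cd4, which was too low to be tested, had 2, 4, 3 and 0 counts with vehicle and 4, 7, 296 and 7 with propyzamide, and Cd8a had 1, 2, 1 and 2 against 3, 10, 154 and 3. Activation and checkpoint genes had a median of 0.36 over 7 genes and naive and memory genes 0.29 over 9, close to the 0.32 of all named genes. Cytotoxic genes had 0.19 over 4, and of the T helper cytokines and regulators only Stat4 was tested, at 0.19.

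Macrophage and monocyte genes had 9 of 11 members positive with a median of 0.61, and 8 with 0.39 without replicate 3. Lyz2, the lysozyme of myeloid cells, had 24.6, 29.9, 21.7 and 17.2 CPM with vehicle and 35.8, 37.0, 35.7 and 46.7 CPM with propyzamide. Its groups did not overlap, by a modest 0.73 ± 0.46, or 0.78 without replicate 3. Csf1r, the receptor for macrophage colony-stimulating factor, gave 1.25 ± 0.58, and 0.87 without replicate 3. Inflammatory cytokines and chemokines lay below the named genes, with 2 of 8 positive and medians of -0.03 and -0.36, and with RLE normalization the median was 0.28, beside 0.54 for all named genes. Il1b had 30.7, 2.99, 13.7 and 8.602 CPM with vehicle against 14.7, 9.03, 53.8 and 39.4 CPM, and Cxcl10, an interferon-induced chemokine, gave -0.92 ± 0.88. Granulocyte and dendritic cell genes had 4 tested members each, with medians of 0.32 and 0.26.

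Interferon-inducible GTPases, which attack the vacuoles of intracellular pathogens, had lower fitted levels with propyzamide in 6 of 9 tested members, with a median of -0.21. Without replicate 3, 7 of 9 were lower, the median was -0.60 and 3 had an unadjusted p under 0.05. At that threshold 1.63% of all named genes were lower in the same fit. Summed levels were 4378, 1835, 2158 and 1999 coding CPM with vehicle and 1695, 1342, 2722 and 1629 with propyzamide. Each of the other 3 propyzamide libraries was below all vehicle libraries, and replicate 3 was above 3 of them. The separation thus holds only with replicate 3 set aside. Of the 40 lists, the erythrocyte list and the enteroendocrine and tuft cell list also lay wholly below vehicle in that case. The latter was at 91.0 to 121 against 141 to 218 coding CPM, and the plasma cell list lay wholly above. With RLE normalization the median was 0.05, beside 0.54 for all named genes, so the list lay below the named genes under both scalings. Gbp2, a guanylate-binding protein, had 56.6, 22.4, 26.3 and 6.88 CPM with vehicle and 11.4, 6.32, 25.3 and 6.23 CPM with propyzamide (-1.11 ± 0.64, and -1.88 ± 0.74 without replicate 3). Iigp1, an immunity-related GTPase, gave -0.85 ± 0.61 and -1.55 ± 0.72. The 7 erythrocyte genes summed to 376 to 864 coding CPM with vehicle and 218, 45.5, 803 and 238 with propyzamide, so here too the other 3 propyzamide libraries were below all vehicle libraries. The 2 tested globins, Hba-a2 and Hbb-bs, had a median of -0.33, and of -0.00075 with RLE normalization, beside 0.32 and 0.54 for all named genes. Hbb-bs had 22.5, 8.96, 18.3 and 13.8 CPM against 4.88, 1.81, 28.3 and 6.23 CPM. Its log2 fold change was -0.44 ± 0.66, and -1.91 ± 0.76 without replicate 3. Vim and Pecam1, the 2 tested of the 23 members of the stromal, muscle, endothelial and glial list, were lower too. Vim gave -0.66 ± 0.68. The summed level of that list overlapped, at 981 to 2532 coding CPM with vehicle and 432 to 1941 with propyzamide. The part of blood and stroma in the GTPase levels was not tested. The wider list of interferon-stimulated genes had 10 of 19 positive, with medians of 0.07 and -0.10.

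2 members of that GTPase list, Tgtp1 and Tgtp2 (chromosome 11, 48985327 to 48994172 and 49057194 to 49064206, both minus strand), had opposite differences. Tgtp1 had 16.4, 0, 0 and 1.72 CPM with vehicle and 13.0, 17.2, 19.7 and 19.7 CPM with propyzamide, while Tgtp2 had 42.3, 19.4, 21.7 and 27.5 against 0, 0, 26.1 and 13.5. The genes are close copies, sharing 2594 of the 2908 stretches of 31 bases in Tgtp2, and reads can be given to either. Their sum was 32.3 ± 18.1 CPM with vehicle and 27.3 ± 15.1 CPM with propyzamide (SD, n = 4), which overlapped.

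For the AHR axis the depth allowed little to be said. Cyp1a1, the most responsive AHR target, had 1 count in the 4 vehicle libraries together and 2 in the 4 propyzamide libraries. Ahr itself had 9, 0, 1 and 1 counts with vehicle and 0, 0, 113 and 2 with propyzamide. Ahrr, the AHR repressor, had 5.46, 8.96, 4.57 and 12.04 CPM against 3.26, 2.71, 6.03 and 4.15 CPM, and Tiparp, another target, had 6.83, 0, 2.28 and 5.16 against 4.88, 6.32, 8.06 and 5.19. None of these 4 passed the filter on low counts. Of the 15 genes of the AHR list, Nfe2l2 and Xdh were tested, at 0.95 ± 0.68 and 0.58 ± 0.57. Both rested on replicate 3, without which they were at 0.10 and -0.62. Cebpb, the gene of C/EBPbeta, had 0, 1, 1 and 0 counts with vehicle and 0, 2, 3 and 0 with propyzamide, and Cebpd had 2 and 17 counts per group. A difference in these genes was not detectable at this depth. The 5 tested genes of the C/EBP and acute response list had a median of 0.16 and ran from -0.10 to 2.735.

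NF-kappaB subunits, inhibitors and targets had 9 of 12 members positive, near the 69.3% of all named genes, with a median of 0.13, and 7 of 12 with 0.09 without replicate 3. Both medians were below those of all named genes, 0.32 and 0.24. Ikbkb, the kinase that releases NF-kappaB from its inhibitor (chromosome 8, 22659212 to 22706589, minus strand), had 8.87, 8.96, 17.1 and 5.16 CPM with vehicle and 24.4, 35.2, 18.6 and 25.9 CPM with propyzamide. Its groups did not overlap, and replicate 3 was the lowest of the propyzamide libraries (1.33 ± 0.54, edgeR adjusted p = 0.427, and 1.498 ± 0.57 without it). Nfkb2, the subunit of the alternative pathway, had 7.51, 7.47, 8.00 and 5.16 CPM against 11.4, 15.3, 10.1 and 10.4 CPM, also without overlap (0.72 ± 0.66). The feedback inhibitors did not share this: Nfkbia gave -0.16 ± 0.56 and Tnfaip3 0.14 ± 0.50, and both signs turned with other settings.

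Tubulin is the target of propyzamide in plants, and with all libraries the median of the mouse tubulin and microtubule genes was close to that of all named genes. Of 12 tested members 9 were positive with a median of 0.36, beside 69.3% and 0.32 for all named genes. Without replicate 3 these were 6 of 12 and 0.03, beside 63.9% and 0.24. Tuba1b had 34.1, 59.7, 43.4 and 32.7 CPM with vehicle and 42.3, 79.5, 102.7 and 101 CPM with propyzamide (0.95 ± 0.49). Tubb5 gave 0.70 ± 0.42, with and without replicate 3. Tubb4b gave 1.41 ± 0.67 and 0.53 without that library, and Tuba1a 0.76 ± 0.80 and -0.01. Actin and motility genes had 16 of 18 positive, with medians of 0.47 and 0.45.

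DNA replication and proliferation genes had 11 of 14 tested members positive, with a median of 0.85 and of 0.88 without replicate 3. Summed levels were 2085 to 2845 coding CPM with vehicle and 2785 to 3537 with propyzamide, and 1 propyzamide library lay within the vehicle range. Mcm3, a subunit of the replicative helicase (chromosome 1, 20802968 to 20820312, minus strand), had 4.09, 11.9, 9.14 and 6.88 CPM with vehicle and 26.1, 28.9, 19.3 and 20.8 CPM with propyzamide. Ube2c, the ubiquitin-conjugating enzyme of the anaphase-promoting complex, had 1.36, 7.47, 1.14 and 1.72 CPM against 8.14, 9.93, 10.8 and 11.4 CPM. Neither overlapped between the groups, and both were as large without replicate 3: Mcm3 at 1.59 ± 0.61 and 1.70 ± 0.66, Ube2c at 1.88 ± 0.78 and 1.83 ± 0.85. They were the 2 list members at an unadjusted p under 0.05 in either fit, and their edgeR adjusted p was 0.379 and 0.457. The shares of all named genes higher at that threshold were 6.34%, and 2.32% without replicate 3.

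Medians of genes of energy metabolism and protein folding also lay above those of all named genes, of which 69.3% were positive, and 63.9% without replicate 3. Positive medians were not particular to 24 h. Without stimulation they were 0.67 for glycolysis, 0.74 for nuclear-encoded oxidative phosphorylation and 0.43 for chaperones, and at 3 h 0.17, -0.01 and -0.24. No median of all named genes was taken at those stages. Glycolytic enzymes were positive in 10 of 10 with a median of 0.88, and in 9 with 0.69 without replicate 3, and they summed to 3207 to 4299 coding CPM with vehicle and 4117 to 7225 with propyzamide. Gpi1, glucose phosphate isomerase, had 13.0, 20.9, 18.3 and 20.6 CPM with vehicle and 26.1, 31.6, 49.2 and 42.6 CPM with propyzamide, without overlap (1.08 ± 0.45, and 0.92 without replicate 3). Tpi1, triose phosphate isomerase, gave 1.44 ± 0.58 and 0.88. Nuclear-encoded subunits of oxidative phosphorylation were positive in 52 of 54 with a median of 0.86, and in 47 with 0.52. Of these 12 and 3 had an unadjusted p under 0.05, beside 6.34% and 2.32% of all named genes that were higher. Ndufs8 of complex I, at 1.77 ± 0.65 and 1.69, and Atp5c1 of the ATP synthase, at 1.51 ± 0.56 and 1.29, had the smallest p. Mitochondrially encoded genes, which make other subunits of the same complexes, had a median of -0.01, with 7 of 16 positive, beside 0.32 for all named genes. Without replicate 3 their median was 0.10, with 12 of 16 positive, beside 0.24. With RLE normalization it was 0.16, beside 0.54.

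Heat shock and chaperone genes were positive in 17 of 18, with medians of 0.84 and 0.63. Their summed level was 8193 to 11300 coding CPM with vehicle and 7871, 16410, 16030 and 15920 with propyzamide, so that propyzamide replicate 1 was below every vehicle library and the other 3 were above. Hspa8, the constitutive Hsp70, had 146, 233, 235 and 129 CPM with vehicle and 142, 430, 420 and 391 CPM with propyzamide (0.90 ± 0.41). Immediate early genes were positive in 11 of 12 with a median of 0.69, and in 9 with 0.32, and Jun gave 0.95 ± 0.42 and 0.86. Cytosolic ribosomal proteins were positive in 76 of 80 with a median of 0.42, and in 78 with 0.52. Without stimulation 76 of 80 were positive too, with a median of 0.42. Rpl4 did not overlap, at 101, 128, 124 and 107 CPM against 135, 211, 185 and 209 CPM (0.69 ± 0.38). Lipid and sterol genes were positive in 8 of 8 with a median of 0.89, and in 5 with 0.50 without replicate 3. Near the named genes as a whole were the medians of MHC class I genes, with 16 of 18 positive at 0.29 and 0.21, and of p53 and apoptosis genes, with 5 of 7 positive at 0.33 and 0.20. Epithelial stress genes were positive in 2 of 3 with medians of 1.78 and 0.00, and Nrf2 and xenobiotic response genes in 2 of 2 with 1.68 and 0.41. No enteroendocrine or tuft cell gene had enough counts to be tested.

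**Figure D4:**
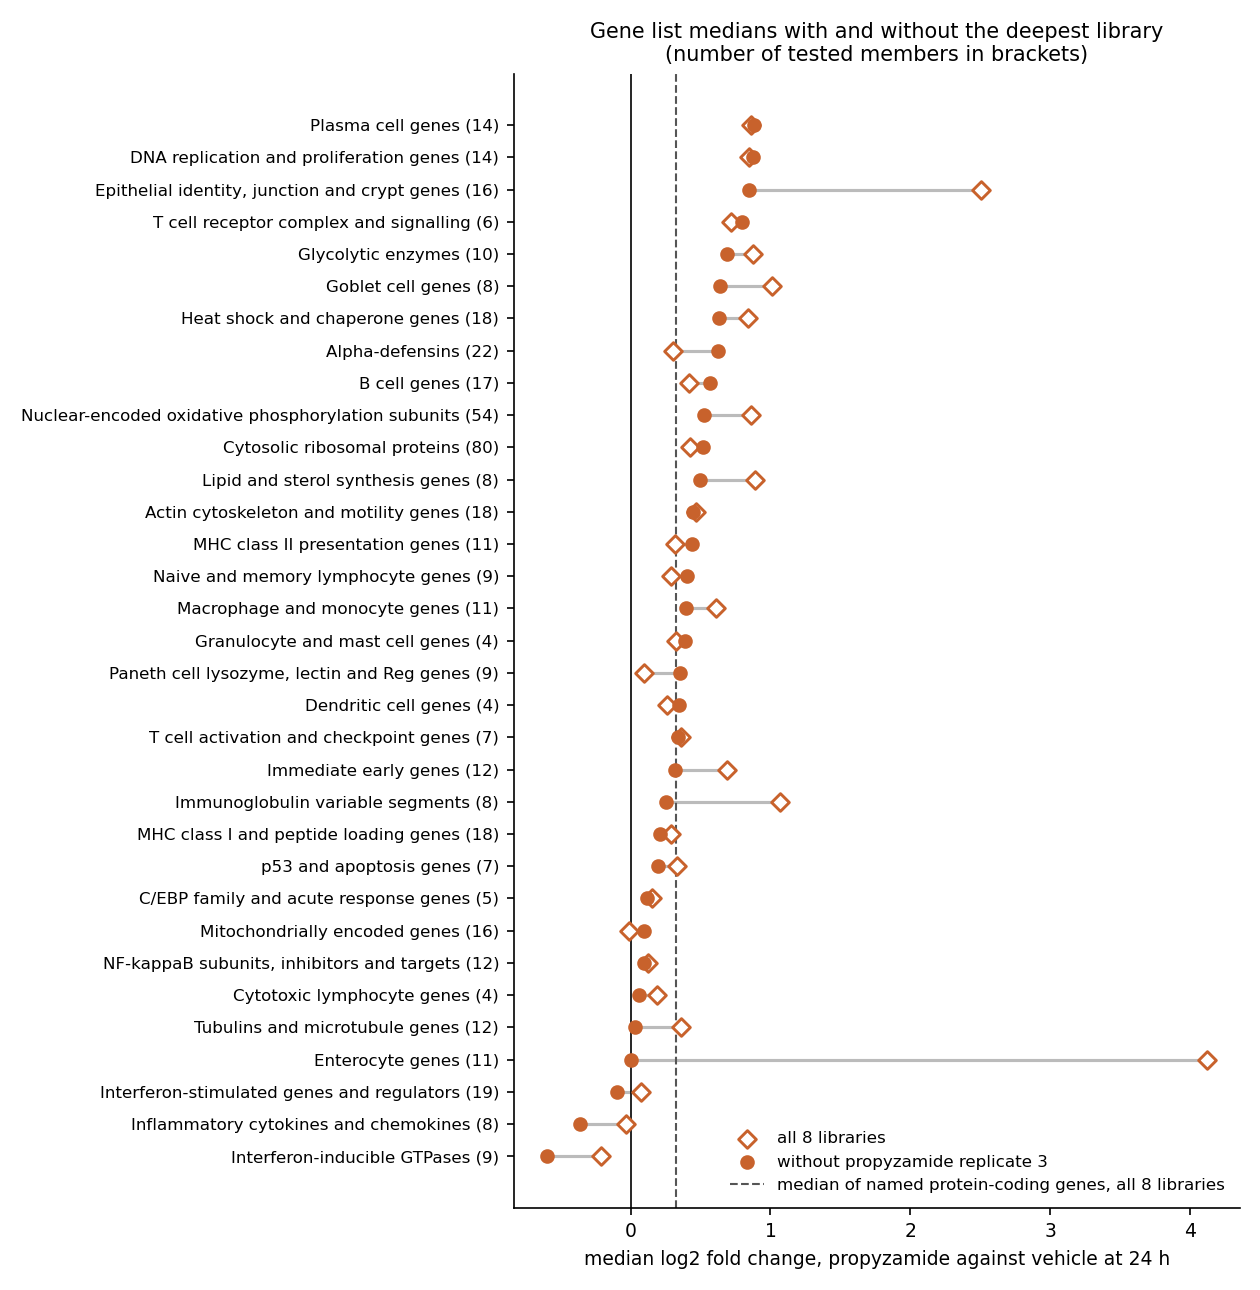
Median log2 fold change of propyzamide against vehicle at 24 h for the 33 gene lists with at least 4 tested members, with all 8 libraries (open diamonds) and without propyzamide replicate 3 (filled points). The dashed line is the median of named protein-coding genes, 0.32, and the widest gap is that of enterocyte genes, from 4.12 to 0.00.

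Whether the difference at 24 h departs from that at the earlier stages was tested by interaction terms, which called 0 of 3799 genes (0%) for unstimulated to 24 h and 0 of 3799 (0%) for 3 h to 24 h. At an unadjusted p under 0.05 these had 89 and 233 genes, DESeq2 called 2 (Apoa4 and Gm21596) and 1 (Apoa4), and limma-voom called 0 in both. Among named protein-coding genes Muc16 had the smallest p from 3 h to 24 h. Its difference was 1.01 ± 0.35 at 3 h, with 17.3, 20.5, 19.7 and 15.1 CPM with vehicle and 24.0, 53.4, 41.2 and 30.6 CPM with propyzamide, so that the sign at 24 h was opposite (interaction -2.24 ± 0.50, edgeR adjusted p = 0.426). Fam193a was also opposite at 3 h, at -1.55 ± 0.79 (interaction 4.88 ± 1.25, edgeR adjusted p = 0.627). Myl12b, a myosin light chain, had 17.3, 1.52, 17.1 and 10.1 CPM with vehicle at 3 h and 1.603, 0, 0 and 0 with propyzamide, against an overlap at 24 h. At 3 h the groups carry different i5 indexes, so index and treatment cannot be told apart there. From unstimulated to 24 h, Fam193a, Clasp2 and Wls, a carrier of Wnt proteins, had the smallest p among these genes, each with an edgeR adjusted p of 0.9999. Clasp2 was at 0.27 ± 0.41 without stimulation.

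A gene on the lower side, Gm28661, was chosen for description after its values were seen, because its sequence bears on how its difference is read. It is an unprocessed pseudogene (GRCm38 chromosome 1, 24614885 to 24615565, minus strand), a nuclear copy of the mitochondrial gene mt-Co2 (mitochondrial genome, 7013 to 7696, plus strand), which encodes subunit 2 of cytochrome c oxidase. In GENCODE M21 all 681 bases of Gm28661 are found in mt-Co2 with 0 differing bases, and mt-Co2 has 3 bases more at its end. Both lengths, 681 and 684 bases, are also those of the deposited files. The last 30 bases of each, 5′ to 3′, show the single difference, with the 3 additional bases in capitals:
Gm28661: tatttcgaaaactgatctgcttcaataatt
mt-Co2: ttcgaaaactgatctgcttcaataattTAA

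Gm28661 had 257, 615, 132 and 129 CPM with vehicle and 8.14, 15.3, 30.2 and 14.5 CPM with propyzamide, without overlap (-3.94 ± 1.10, edgeR adjusted p = 0.322, and -4.41 without replicate 3). It was the 1 gene that edgeR called when the 24 h libraries were fitted alone (adjusted p = 0.00136). Of the counts given to the pair, Gm28661 held 18.6%, 69.5%, 11.7% and 15.4% with vehicle and 0.663%, 2.06%, 3.35% and 0.979% with propyzamide. In the 16 libraries of the other stages that share ran from 0.140% to 99.1%. The sum of both genes was 1060 ± 251 CPM with vehicle and 1090 ± 331 CPM with propyzamide (SD, n = 4), and it overlapped. A difference in the pair as a whole was therefore smaller than the spread between replicates.

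**Figure D5:**
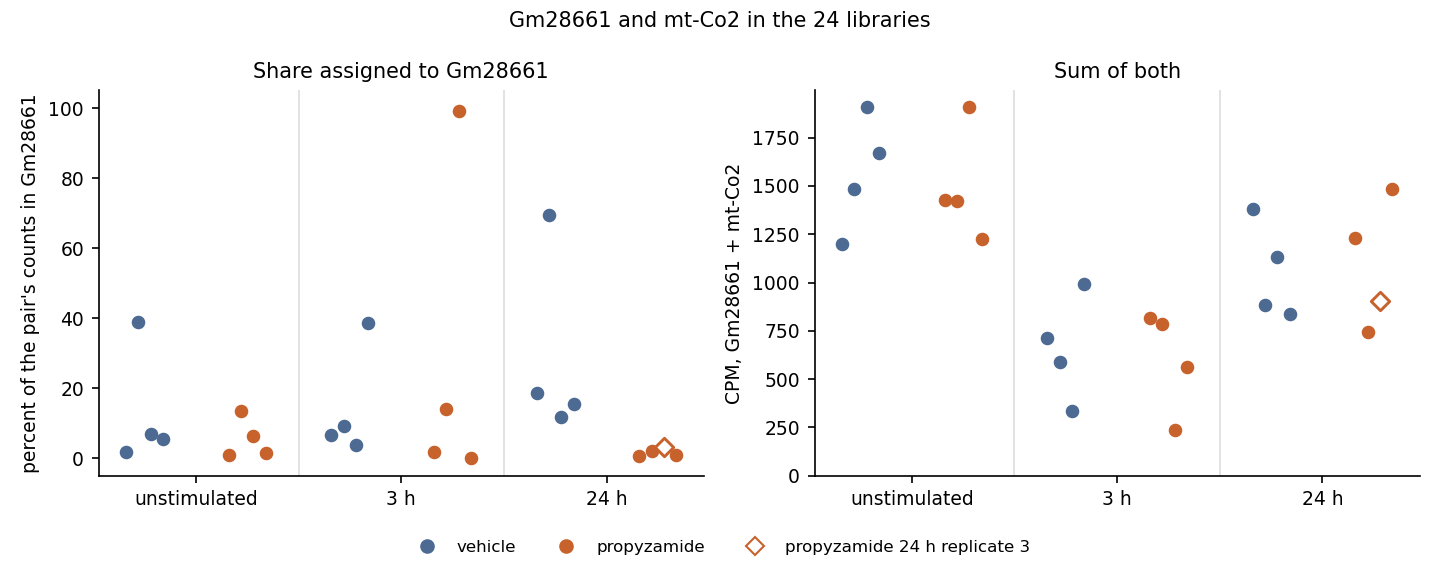
Percent of the counts of Gm28661 and mt-Co2 that were given to Gm28661 (left) and the sum of both in CPM (right) in all 24 libraries, 1 point per library. At 24 h the share is 11.7% to 69.5% with vehicle and at most 3.35% with propyzamide, while the sums overlap, at 840 to 1383 CPM and 745 to 1484 CPM.

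Gm21596, Gm25190 and Gm37951 were also chosen after their values were seen, because DESeq2 called them or edgeR came near to it. The fit without the filter on low counts called further models that are not described here. Among them were Gm28437 (log2 fold change 4.54, edgeR adjusted p = 1.06e-14) and Gm48113 (-5.73, edgeR adjusted p = 2.1e-06). Gm21596, a processed pseudogene on chromosome 2 (113919247 to 113920562, minus strand), had 0 counts in all vehicle libraries and 3, 7, 335 and 12 with propyzamide, at least 12.3-fold higher against the vehicle floor. It shares 1122 of its 1286 stretches of 31 bases with Hmgb1, the gene of a chromatin protein. Its counts and those of Hmgb1 summed to 43.9 ± 13.2 CPM with vehicle and 44.0 ± 4.53 CPM with propyzamide. Gm25190, a microRNA model of 65 stretches that share sequence with 1765 other genes, had 115, 95.6, 95.9 and 98.1 CPM with vehicle and 0, 0, 109 and 16.6 CPM with propyzamide. Without replicate 3 it had the smallest edgeR adjusted p, 0.0522. Gm37951, a model marked as still to be experimentally checked in the annotation, on chromosome Y (8251026 to 8254057, minus strand), had 104, 86.6, 80.0 and 92.9 CPM with vehicle and 57.0, 42.5, 27.8 and 24.9 CPM with propyzamide. It did not overlap, at -1.28 ± 0.31 and -1.14 ± 0.30 without replicate 3. It shares stretches of 31 bases with 177 other genes, with at most 121 of its 3002 stretches in any single one of them.

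Gene models that are not named protein-coding genes were lower as a class. Of 1340 tested, 315 had a positive log2 fold change with a median of -0.42, and 462 with -0.22 without replicate 3. The 12 satellite-like models were all negative, with medians of -0.74 and -0.39, and olfactory and vomeronasal receptor models were positive in 22 of 265. Of these receptor models, 40 were lower at an unadjusted p under 0.05, and 19 without replicate 3. With all libraries 15 lay wholly below vehicle. Among named protein-coding genes 2.24% were lower at that threshold, 1.63% without replicate 3, and 1.26% lay wholly below vehicle. The share of counts in named protein-coding genes moved with this difference, as given above. Its part in the levels of single genes on the lower side was not tested.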

How the data were processed

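RNA of 24 samples was made into SMART-seq2 libraries, per the labels' protocols, and quantified with kallisto on GRCm38 with no version stated, per the submitters' processing notes. The deposited files give expected counts for 142604 transcripts, per the file headers. They were summed to 55401 genes by gene ID and rounded, and no other column was used. Coordinates and transcript sequences came from GENCODE M21 (55141 genes matched).

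The test was that of edgeR 4.0.16 (R 4.3.3) on these counts, with 1 coefficient per group over all 24 libraries, filterByExpr (3799 genes kept), TMM, the quasi-likelihood F test and Benjamini-Hochberg adjustment. This shares the spread of 6 groups, a biological variation of 46.4%. CPM are TMM-normalized, and fold changes carry their SE. Named protein-coding genes leave out number and clone names, olfactory and vomeronasal receptors and mitochondrial genes. Satellite-like models share at least 5% of their 31-base stretches with Gm10800. Scripts were tested on simulated data.

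Members and the 40 gene lists were chosen with earlier results of these data known. Named genes were the 10 higher and 10 lower with the smallest p, up to 4 per list, a panel of 31, and 3 per interaction; 6 others were chosen after their values were seen. The floor is 3 counts over a group. Intervals have 95% confidence (Clopper-Pearson). Neither covers more than counting error, because copies made by PCR could not be told from separate molecules. Other settings were RLE, no filter, 24 h libraries only, DESeq2 1.42.0, limma-voom (limma 3.58.1), named genes only and leaving out libraries.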

Additional observations from a re-analysis of the deposited data

Results flagged for a closer look

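In each group of 4 libraries at 24 h, the gap between the most extreme library and its neighbour was divided by the range, and values over Dixon's 95% limit for 4 values were marked. Of 182 groups of values looked at, 34 passed, and in 17 of them propyzamide replicate 3 stood apart. The limit marks about 1 in 20 groups of independent, normally spread values. The groups here share libraries, and some hold a few counts in a single library, so 34 cannot be read against that rate.

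That library had the lowest share of satellite-like counts (0.94) and the highest share in named protein-coding genes (0.87), genes detected (0.93) and total counts (0.97). It was the highest for Fabp1 (0.95), Apoa1 (0.96), Apoa4 (1), Lgals4 (0.92), Cldn7 (0.97), Muc13 (0.85), Areg (1), Ighg2b (0.86), Hbb-bs (0.83), Gm25190 (0.85), Cyp1a1 (1), Cebpd (1) and the summed enterocyte genes (0.97). Cyp1a1 had 2 counts there.

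Other propyzamide libraries stood apart for Clasp2 (replicate 1 highest, 0.94), Cebpb (replicate 2 highest, 0.95, on 2 counts) and Lyz2 (replicate 4 highest, 0.88). Replicate 1 was the lowest for Ndufs8 (0.97), Hspa8 (0.87) and the summed chaperone genes (0.94).

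With vehicle, replicate 1 was the highest for Muc13 and Muc2 (both 1), Igha (0.84), Tgtp1 (0.89), Cyp1a1 (1, on 1 count), Gm25190 (0.87) and the summed interferon-inducible GTPases (0.87), and the lowest for the summed plasma cell genes (0.93). Replicate 2 was the highest for Ube2c (0.91) and the summed tubulin genes (0.84), and replicate 3 for Apoa1 (1, on 1 count).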

How the results depend on the processing

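Leaving out each of the 8 libraries in turn gave 0 called genes in each comparison, as did RLE normalization, limma-voom, named protein-coding genes only, and both further fits without propyzamide replicate 3. For propyzamide against vehicle at 24 h, 1 gene was called with 24 h libraries only (Gm28661), 3 by DESeq2 and 65 without the filter on low counts. For the change from unstimulated to 24 h these were 2 by DESeq2 and 20 without the filter, and for the change from 3 h to 24 h 1 and 27. Of the 65 genes, 59 were higher, 44 are among the 3799 tested with the filter and 21 are enterocyte or epithelial identity genes. The cause was not tested, other than that the unfiltered fit tested 48267 genes. The difference in genes detected, 5828 more with propyzamide, was reversed without propyzamide replicate 3, at -1140, and its leave-one-out values ran from -1140 to 8494.

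Of the fold changes of single genes under other settings, 954 kept their direction and side of the threshold, 17 passed the threshold in the same direction and 19 changed sign. Nfkbia was positive with 24 h libraries only (0.076), DESeq2 (0.093), RLE (0.10) and no filter (0.051), and ran from -0.45 to 0.021 when each library was left out, positive without vehicle replicate 1. Tnfaip3 was negative with limma-voom (-0.29), named genes only (-0.049), these without replicate 3 (-0.34), a repeated filter without replicate 3 (-0.20), and without propyzamide replicate 3 (-0.24) or vehicle replicate 4 (-0.13), within a leave-one-out range of -0.24 to 0.39. Xdh was negative with limma-voom (-0.60) and in the 3 fits without replicate 3 (-0.74, -0.58 and -0.62), with a leave-one-out range of -0.62 to 0.91. Nfe2l2 was negative with named genes only without replicate 3 (-0.073), and so was Tuba1a (-0.18), whose leave-one-out range was -0.0085 to 0.99, negative without replicate 3. Lyz1 ran from -0.015, without propyzamide replicate 4, to 0.53. Some list medians also took both signs between settings. Interferon-inducible GTPases had values from -0.62 to 0.22, cytotoxic genes from -0.22 to 0.60 and NF-kappaB genes from -0.11 to 0.65. Others, such as replication genes at 0.57 to 1.07, stayed positive. The cause was not tested.

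No paired analysis was possible because the labels carry no replicate numbers. Depth limits all fold changes of genes with a few counts in the 7 shallower libraries: 3 counts there are 2.05 to 5.16 CPM. The labels name no tissue or cell sort, so differences in what was sampled cannot be told apart from treatment.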
